A study of Mus musculus with 3 samples.

Results

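Transcripts of the respiratory chain downstream of complex I were examined in adult hearts: succinate dehydrogenase (complex II), cytochrome bc1 (complex III), cytochrome c, and cytochrome c oxidase (complex IV). The genes were taken by name from the array annotation, as Sdha to Sdhd, every name starting with Uqcr, Cyc1, Cycs and every name starting with Cox4 to Cox8. This gave 32 of 28090 gene names on the array and 40 of its 41174 probes, each printed at 1 spot per array. Cox4nb entered by its name alone: the current symbol is Emc8, a component of a protein complex of the endoplasmic reticulum membrane and no oxidase subunit. Uqcr is now Uqcr11.

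The hearts were compared on 3 Agilent whole mouse genome arrays (replicates 1 to 3), which read 2 dyes, Cy5 and Cy3, at each probe. By the labels, Cy5 carried RNA pooled from 2 hearts of Lrrc10-/- mice and Cy3 a reference pool of RNA from 2 hearts of WT (Lrrc10+/+) mice, all of strain C57/BL6 and 2 months of age, with no treatment. Lrrc10 encodes a cardiac leucine-rich repeat protein, and no tissue-specific driver is named for its deletion. The dyes were not swapped. The methods speak of independent biological replicates, pooled from littermates, and the labels of a reference pool, without saying whether it was shared. If the arrays shared 1 WT pool, the spread among WT hearts does not enter the tests.

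Electrons from succinate enter at complex II, which is also an enzyme of the citric acid cycle, and pass through ubiquinone to complex III. Cytochrome c carries them to complex IV, where oxygen is reduced. Complexes III and IV pump protons that drive ATP synthesis, and complex II does not. Cardiomyocytes hold many mitochondria, and several small subunits of complex IV have a separate isoform in heart and skeletal muscle. Most subunits are encoded in the nucleus, while the catalytic core of complex IV and cytochrome b of complex III are encoded by mitochondrial DNA.

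The probe of Lrrc10, the targeted gene, had more signal in Cy5 than in Cy3 on each array, with log2 ratios of 4.91, 5.56 and 5.65 on replicates 1, 2 and 3 and an adjusted p of 0.00025 by limma. Since Cy5 is labelled Lrrc10-/-, this goes against the labels, and directions are given by channel throughout. All signed values are log2 ratios of Cy5 over Cy3. The probes of Nppa, which encodes atrial natriuretic factor, were brighter in Cy3, at -0.89, -0.61 and -0.82 for A_52_P580582 and -1.44, -0.82 and -0.25 for A_51_P361340, with an adjusted p of 1.00 by limma for each. The study reports Nppa transcripts higher in adult Lrrc10-/- hearts, on its arrays and by quantitative PCR in older mice, and more of the protein. With the dyes as labelled, the respiratory probes selected on all arrays have deposited ratios opposite to the direction the study describes for adult Lrrc10-/- hearts. By quantitative PCR the study also reports higher transcripts of oxidative phosphorylation genes, among them subunits of cytochrome c oxidase. All of the selected probes are saturated, 4 of 5 in both channels on each array and Cox5b in Cy5 on each array. None of them has a measured direction, and exchanging the channels would turn every sign. Other probes of the set differ from these. Both unsaturated probes of cytochrome c (Cycs), which overlap in sequence, had positive means smaller than their SD. Of the 17 unsaturated probes, 11 had a positive mean, and the balance of signs over the set changed with the processing.

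Many probes of these complexes reached the ceiling of the scanner. Of the 40 probes, 38 probes of 30 genes passed the minimum of 20 for the mean processed signal and were tested. Of these, 21 (55.3%) were saturated in a channel of at least 1 array, against 0.673% of all 29576 tested probes, and they made up 10.6% of all 199 saturated probes. The other 17 probes, of 14 genes, were below saturation throughout. For 16 genes every tested probe was saturated somewhere, among them Cox4i1, Cox5a, Cox5b, Cox6a2, Cox6c, Cox7a1 and Cox8b of complex IV. The scanner software records saturation at 65245 units in Cy5 and 65227 in Cy3, the highest mean signals of the set were 65262 and 65244 units, and the processed signals given for single probes are scaled up from the mean signals. Saturated probes are therefore described apart from the rest.

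**Figure D1:**
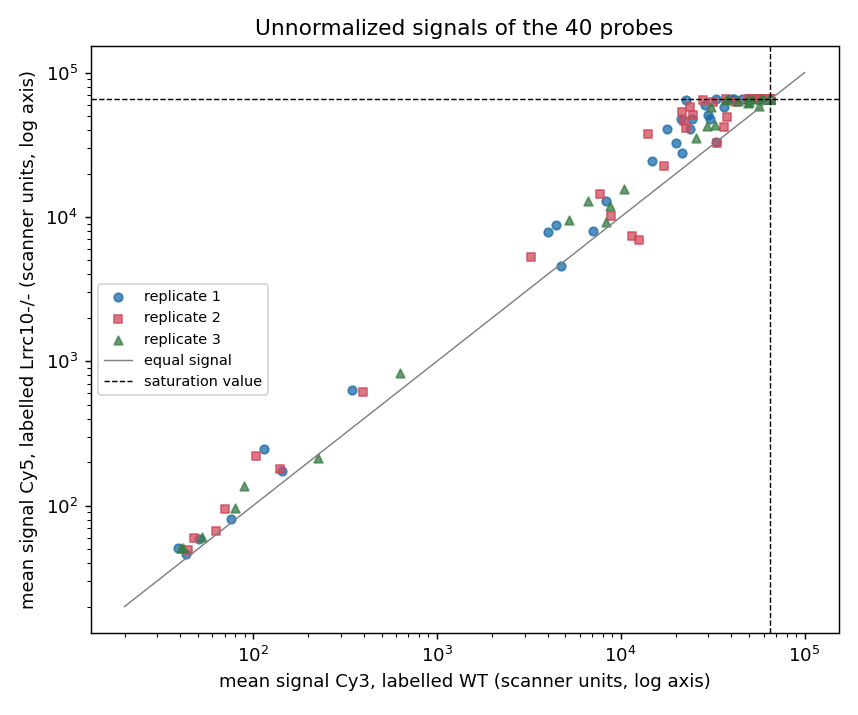
Unnormalized mean signals of the 40 probes on each array, Cy3 (labelled WT) on the x axis and Cy5 (labelled Lrrc10-/-) on the y axis, both in scanner units on log axes. Each point is 1 probe on 1 array, the diagonal marks equal signal and the dashed lines the saturation values of 65227 in Cy3 and 65245 in Cy5, along which many points are aligned.

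Several genes had more than 1 probe. These probes are shown because the same gene, by the annotation, was read with and without saturation, or by overlapping or separate sequence. The first 30 of 60 bases of each are given 5' to 3', with capitals for the bases within the longest run shared with the other probe of the gene. No bases are in capitals where the longest shared run was under 12 bases. The probes are those of cytochrome c (Cycs), the ubiquitous complex IV subunit Cox7a2, the small complex III subunit Uqcrq and the catalytic complex II subunit Sdha:
Cycs A_51_P163587: aatgatcttcgctggaattaagaagaaggg
Cycs A_51_P261671: aagactaagttgtaaatcagAATTGTCCTT
Cycs A_52_P82247: AATTGTCCTTAAATACCCACTCAGAAACAC
Cox7a2 A_51_P319031: aactgagctcttCTTTGGGGATCAATATTT
Cox7a2 A_52_P37894: CTTTGGGGATCAATATTTATTGATGTGTAT
Uqcrq A_52_P370484: tgcctctgaaagacccttctctgggagagg
Uqcrq A_52_P396522: tttgaacctcttattaaaagtagtttctgg
Sdha A_51_P410823: tgcagcacaagtattgttttgttcattctc
Sdha A_52_P109503: tgaatcttgacaagttgagatttgccgatg

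The Cycs probes A_51_P261671 and A_52_P82247 shared a run of 40 bases and the Cox7a2 probes a run of 48 bases, so each pair reads nearly the same stretch. The other pairs shared no more than 8 bases. Between probes of different genes of the set the longest shared run was 10 bases.

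Each probe's mean was compared with 0 in limma, a linear model that pools the spread between arrays over all probes. No probe of the set passed an adjusted p of 0.05 over the 29576 tested probes (lowest adjusted p = 1.00), nor by the methods' t-test after the same adjustment. Across all tested probes limma called 2 in Cy5 (0.00676%) and 0 in Cy3 (0%). Before adjustment, 1 probe of the set passed 0.05 in Cy5, as did 1.54% of all tested probes, and 6 passed it in Cy3, as did 1.52%. The Cy5 probe was A_52_P396522 of Uqcrq, and the Cy3 probes, all saturated, belonged to Cox4i1, Cox5a, Cox5b, Cycs, Uqcrh and Uqcrq. This balance turned when normexp-corrected arrays were median-centred, with 14 in Cy5 (26.9% of all tested probes) and 1 in Cy3 (3.69%) and a lowest adjusted p of 0.069. With unnormalized signals it was 5 in Cy5 (7.29%) and 0 in Cy3 (1.46%). A selection modelled on the study's criteria, a change of 1.2-fold or more in 1 direction with an array p (the p-value of the ratio of 1 spot on 1 array) under 0.05 on all 3 arrays, took 0 of the 38 probes in Cy5 (0.406% of all tested probes) and 5 in Cy3 (0.511%). These were Cox4i1, Cox5a, Cox5b, Uqcrh (A_51_P431852) and Uqcrq (A_52_P370484), every one of them saturated. The methods do not say whether their p belongs to single arrays, and with the p of limma in its place the selection took 1 in Cy5 (0.923% of all tested probes) and 6 in Cy3 (1.12%). Among the 17 unsaturated probes the array p version took none, against 0.408% of all unsaturated probes in Cy5 and 0.426% in Cy3.

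Direction was next compared across arrays. Of the 38 probes, 3 were brighter in Cy5 on all arrays (10.0% of all tested probes) and 12 had negative deposited ratios on each array (11.0%), and all 12 were saturated. Of the 12, 6 were at the ceiling of both channels on each array, and the others at the ceiling of Cy5 on each array. None of the 12 therefore has a measured direction. These counts turned with the processing, and so did those of the whole array. When normexp-corrected arrays were median-centred, 18 probes of the set had positive ratios on each array (41.2% of all tested probes) and 1 had negative ones (11.6%). With unnormalized signals these were 11 (22.6%) and 7 (8.65%). Of the 17 unsaturated probes, 1 was brighter in Cy5 on all arrays (10.1% of all unsaturated probes) and 0 in Cy3 (10.8%). The median log2 ratio of the unsaturated probes was -0.071, 0.35 and -0.013 on replicates 1, 2 and 3, and the median of their means was 0.027, against 0.0024 for all unsaturated probes. The saturated probes had medians of -0.42, -0.081 and -0.36 and a median of means of -0.30, against -0.16 for all 199 saturated probes. In pooled tissue, fewer cells of a type and less RNA per cell cannot be told apart. The SD between arrays of an unsaturated probe had a median of 0.40, close to the 0.39 of all unsaturated probes.

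**Figure D2:**
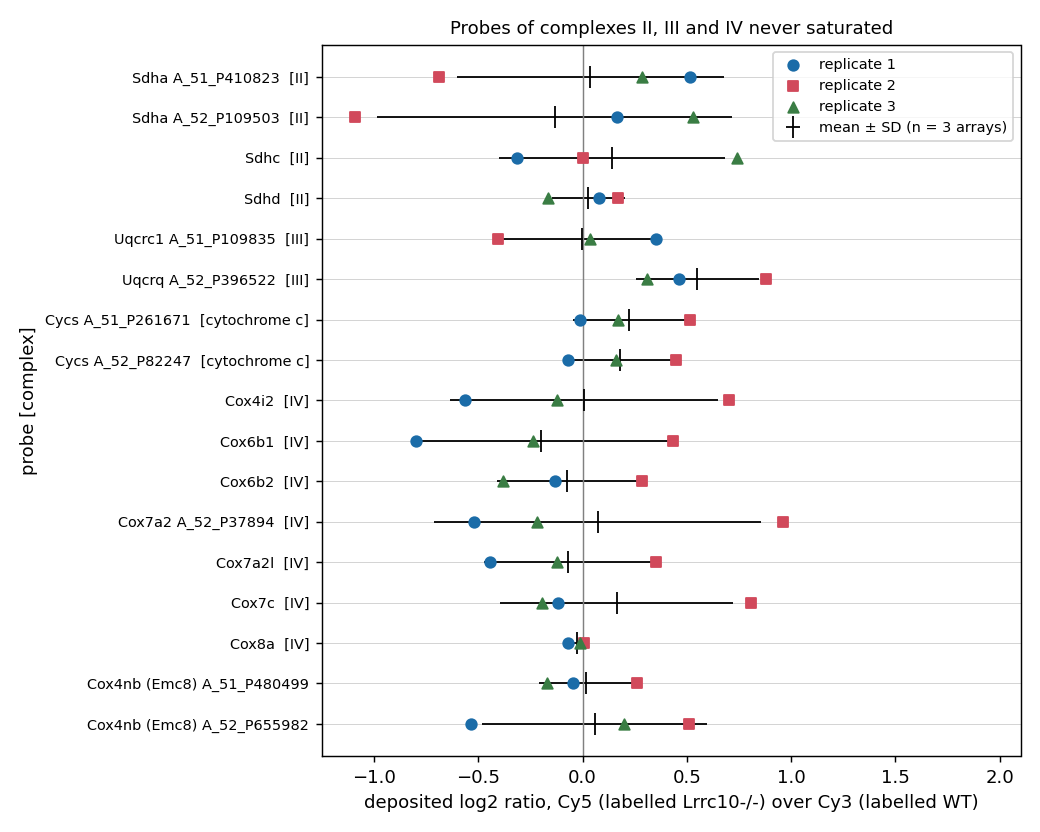
Deposited log2 ratios, Cy5 (labelled Lrrc10-/-) over Cy3 (labelled WT), of the 17 probes never saturated, 1 row per probe with its complex in brackets; coloured symbols are the 3 arrays, and the tick and bar are the mean ± SD. Only Uqcrq A_52_P396522 lies to the right of 0 on all arrays, and none lies to the left of 0 on all arrays.

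Complex II is built of the flavoprotein Sdha, the iron-sulfur protein Sdhb and the membrane anchors Sdhc and Sdhd. Both Sdha probes were dimmer in Cy5 on replicate 2 and brighter in Cy5 on the others. Probe A_51_P410823 had processed signals of 22430, 27266 and 28372 in Cy5 and 15708, 43916 and 23267 in Cy3, with log2 ratios of 0.51, -0.69 and 0.29. Probe A_52_P109503 had signals of 15120, 18065 and 17141 in Cy5 and 13507, 38538 and 11878 in Cy3, with log2 ratios of 0.16, -1.09 and 0.53. Each probe had an array p under 0.05 in both directions: 0.0141 on replicate 1 and 0.00128 on replicate 2 for the first, and 1.51e-06 on replicate 2 and 0.0116 on replicate 3 for the second. Their means were 0.038 ± 0.64 and -0.13 ± 0.85 (SD, n = 3 arrays), smaller than the spread between arrays. The probes differed by 0.35, 0.41 and -0.24 on replicates 1, 2 and 3.

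The anchors of complex II did not follow Sdha on each array. Sdhc had signals of 23066, 36156 and 32225 in Cy5 and 28730, 36110 and 19314 in Cy3, and its log2 ratios of -0.32, 0.0018 and 0.74 were lowest on replicate 1 and highest on replicate 3. Sdhd, with signals of 100926, 140146 and 116380 in Cy5 and 95457, 124667 and 130744 in Cy3, had log2 ratios of 0.080, 0.17 and -0.17, without 1 direction. Sdhb was brighter in Cy5 on all arrays, at 0.11, 0.47 and 0.23, and was saturated in Cy5 on replicate 3. Its mean of 0.27 ± 0.19 (SD, n = 3 arrays) had an unadjusted p of 0.207 by limma and an adjusted p of 1.00. Over the 5 probes of complex II the median log2 ratio was 0.11, 0.0018 and 0.29 on replicates 1, 2 and 3.

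Complex III contains the core proteins Uqcrc1 and Uqcrc2, the Rieske iron-sulfur protein Uqcrfs1, cytochrome c1 (Cyc1) and small subunits that include Uqcrb, Uqcrh, Uqcrq and Uqcr11. It had 11 tested probes, of which 2 were unsaturated. The unsaturated Uqcrc1 probe, A_51_P109835, had signals of 70960, 83300 and 77711 in Cy5 and 55632, 110189 and 75707 in Cy3 and log2 ratios of 0.35, -0.40 and 0.038, with both directions represented and a mean of -0.0049 ± 0.38 (SD, n = 3 arrays). The other Uqcrc1 probe, saturated in Cy5 on all arrays, had log2 ratios of 0.12, -0.49 and -0.37.

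The probes of Uqcrq differed in saturation. Probe A_52_P396522 was unsaturated, with signals of 400.5, 482.6 and 162.9 in Cy5 and 290.4, 262.4 and 131.5 in Cy3, and the array annotates it by a cDNA clone that the reference table lists among the synonyms of Uqcrq. Its log2 ratios were 0.46, 0.88 and 0.31, all brighter in Cy5, with array p of 0.0292, 7.96e-05 and 0.152. The mean was 0.55 ± 0.29 (SD, n = 3 arrays), a ratio of 1.46, with an unadjusted p of 0.0472 and an adjusted p of 1.00 by limma. Probe A_52_P370484 stood at the ceiling of both channels on each array and had deposited log2 ratios of -0.71, -0.41 and -0.42. The mean of A_52_P396522 was 0.37 with normexp correction and loess, 0.51 with normexp and centring on the median and 0.64 with unnormalized signals centred on the median, brighter in Cy5 in each. The saturated probe gives no measured ratio with which to compare these. Whether both probes read the same transcript was not tested.

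Cyc1, Uqcrb and Uqcrc2 were saturated in Cy5 on 1 or 2 arrays and measured in both channels on the others. Cyc1 had log2 ratios of 0.22, 0.062 and 0.25, and the last of these is a lower bound, since Cy5 was saturated on replicate 3. Its mean of 0.18 ± 0.10 (SD, n = 3 arrays) became -0.052 after normexp correction and loess. Uqcrb had 0.19, 0.76 and -0.092, and the last is again a lower bound, so its direction on replicate 3 was not measured. Uqcrc2 had 0.48, -0.081 and 0.041, without 1 direction, and its values on replicates 1 and 3 are lower bounds. Uqcrfs1 was saturated on each array in Cy5 but not in Cy3, with deposited log2 ratios of -0.19, -0.077 and -0.18.

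Cytochrome c (Cycs) was read by 3 probes, which divided by saturation. The overlapping unsaturated probes agreed closely: A_51_P261671 had signals of 67712, 99203 and 73003 in Cy5 and 68307, 69340 and 64922 in Cy3 and log2 ratios of -0.013, 0.52 and 0.17, and A_52_P82247 had -0.071, 0.45 and 0.16. They differed by at most 0.070 on an array, and their means were 0.22 ± 0.27 and 0.18 ± 0.26 (SD, n = 3 arrays). Probe A_51_P163587 lies on another stretch of the transcript and was saturated on all arrays in Cy5 and on 1 in Cy3. Its deposited log2 ratios of -0.75, -0.30 and -0.65 were all negative, with an unadjusted p of 0.0242 and an adjusted p of 1.00 by limma.

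In Cycs, Uqcrc1 and Uqcrq, the genes of the set with 1 probe saturated in Cy5 on all arrays and another below saturation, the saturated probe had the lower deposited ratio on each array. The size of this gap is not a measured difference, since the saturated probes give no measured ratio. The Cox7a2 pair, in which A_51_P319031 was saturated only on replicate 3, differed by 0.10, -0.041 and 0.028. Both channels were saturated there, so the 0.028 is not a measured difference.

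The unsaturated probes of complex IV had no common direction over the arrays. They covered 7 genes, among them the ubiquitous subunits Cox6b1, Cox7a2, Cox7c and Cox8a. The others were Cox7a2l (linked to supercomplexes of complexes III and IV), Cox4i2 (an isoform known from lung) and Cox6b2 (an isoform known from testis). All 7 were brighter in Cy5 on replicate 2 and brighter in Cy3 on replicates 1 and 3, a pattern of signs held by 15.1% of all unsaturated probes. The pattern was noticed in these same probes and is a description, and not all of the signs stand for a difference: Cox8a lay close to 0 on each array, and Cox4i2 was not well above background in both channels throughout. Their median log2 ratio was -0.45, 0.43 and -0.20 on replicates 1, 2 and 3, and the median of the means was -0.025. Replicate 2 gave the highest ratio of the 3 arrays in 7 of 7 probes, against 36.4% of all unsaturated probes. It did so in 7 of 7 after normexp correction and loess (32.3% of all), and, when the arrays were only centred on the median, in 6 of 7 with normexp-corrected (35.5%) and 6 of 7 with unnormalized signals (33.7%). The signs were less stable, with the same pattern in 4, 1 and 3 of 7 probes under these treatments.

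Cox6b1, which lies on the intermembrane side of complex IV, had signals of 7764, 12665 and 15425 in Cy5 and 13520, 9385 and 18170 in Cy3. Its log2 ratios of -0.80, 0.43 and -0.24 had array p of 0.000222 on replicate 1 and 0.0375 on replicate 2, in opposite directions, and a mean of -0.20 ± 0.62 (SD, n = 3 arrays). Cox7a2 showed the widest swing of the complex IV probes, with -0.52, 0.96 and -0.22 for A_52_P37894 and -0.42, 0.92 and -0.19 for A_51_P319031. The -0.19 comes from an array with both channels saturated. Signals of A_52_P37894 were 52195, 94509 and 102319 in Cy5 and 74888, 48526 and 119234 in Cy3. Cox7c, with signals of 91582, 146296 and 102770 in Cy5 and 99396, 83657 and 117791 in Cy3, had log2 ratios of -0.12, 0.81 and -0.20. Cox7a2l had -0.45, 0.35 and -0.12.

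Cox8a was the steadiest probe of the set, with signals of 42740, 53381 and 57087 in Cy5 and 44805, 53135 and 57601 in Cy3 and log2 ratios of -0.068, 0.0067 and -0.013. Its mean was -0.025 ± 0.039 (SD, n = 3 arrays), and its SD was the smallest of the 38 tested probes. The testis isoform Cox6b2 had signals of 331, 440.1 and 360.1 in Cy5 and 362.3, 360.9 and 469.1 in Cy3 and log2 ratios of -0.13, 0.29 and -0.38. Cox4i2 was dim, at 18.1, 30.3 and 23.7 in Cy5 and 26.7, 18.6 and 25.7 in Cy3, was well above background in Cy5 on 2 arrays and in Cy3 on 1, and had log2 ratios of -0.56, 0.70 and -0.12. The other testis isoforms, Cox7b2 and Cox8c, did not reach the signal minimum. Cox7b2 was not well above background on any array, and Cox8c was well above background only on replicate 2, with signals of 48.9 in Cy5 and 72.8 in Cy3.

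Array p-values under 0.05 in opposite directions on different arrays occurred in 6 of the 38 probes, against 15.4% of all tested probes: both Sdha probes, both Cox7a2 probes, Cox6b1 and A_52_P655982 of Cox4nb. They made up 5 of the 17 unsaturated probes, where all unsaturated probes also gave 15.4%. The Cox4nb (Emc8) probes, which do not read an oxidase subunit, had log2 ratios of -0.046, 0.26 and -0.17 for A_51_P480499 and -0.54, 0.51 and 0.20 for A_52_P655982.

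The probes at the ceiling of both channels had no measured direction. Both channels were saturated in 29 pairs of values (probe and array), in which the unnormalized log2 ratio lay between -0.0074 and 0.012, the ratio of the shared ceilings. The deposited log2 ratio of the same values lay between -0.999 and -0.082, with a median of -0.49, and was below 0 in 29 of 29. The linear dye factors deposited with each array, taken alone, turn a ratio of 1 into a log2 ratio of -0.69, -0.36 and -0.39 on replicates 1, 2 and 3. Where Cy5 alone was saturated (23 values), the deposited ratio was below 0 in 16 and above 0 in 7, and where neither channel was (62 values), it was below 0 in 26 and above 0 in 36.

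**Figure D3:**
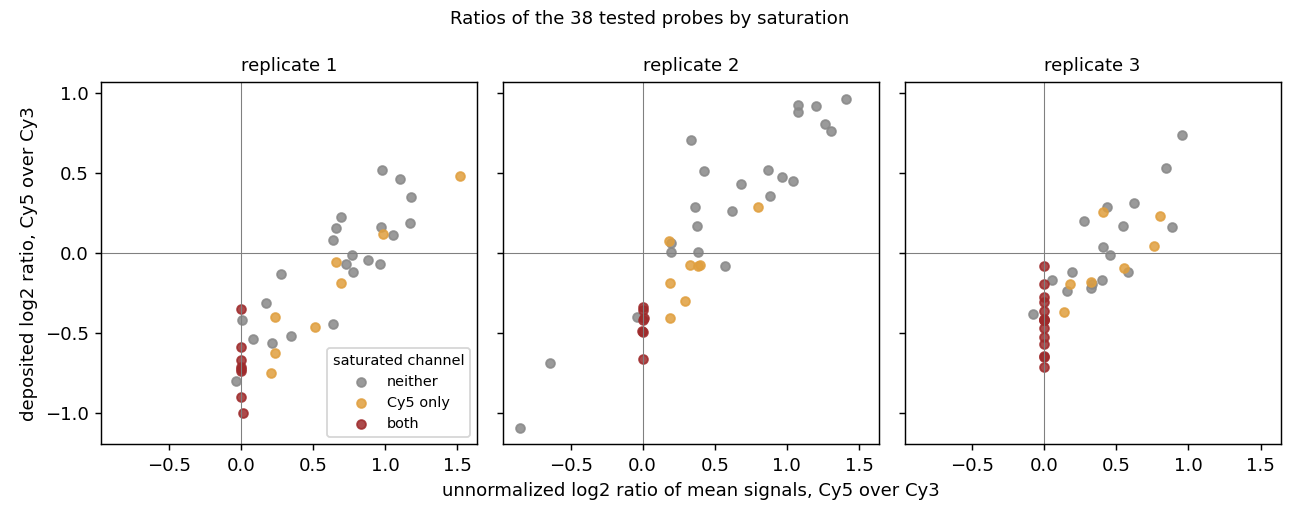
Deposited log2 ratio (y axis) against the unnormalized log2 ratio of the mean signals (x axis), Cy5 over Cy3, of the 38 tested probes, in 1 panel per array and coloured by which channel was saturated. Points with both channels saturated stand in a column at an unnormalized ratio of 0 and at deposited ratios between -0.999 and -0.082.

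For 6 probes both channels were saturated on all 3 arrays, so no fold change can be given: Cox4i1 and Cox5a, which are subunits of the nuclear-encoded shell of complex IV, the heart isoforms Cox6a2 and Cox7a1, Uqcrh (A_51_P431852) and Uqcrq (A_52_P370484). The deposited ratios of Cox4i1 were -0.999, -0.66 and -0.72 and its unnormalized ratios 0.012, 0.0035 and 0.00040. Its unadjusted p of 0.00431 was the lowest in the set, with an adjusted p of 1.00 by limma. Cox5a had deposited ratios of -0.74, -0.42 and -0.42 and Uqcrh -0.90, -0.49 and -0.52. All 6 had negative deposited ratios on each array, and 4 of them are among the 5 probes selected in Cy3.

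The fifth of these, Cox5b, was saturated on each array in Cy5 and on 1 array in Cy3, and had deposited ratios of -0.47, -0.41 and -0.65 with array p of 0.0252, 0.049 and 0.0023. In all, 9 probes were at the Cy5 ceiling on each array and measured in Cy3 on at least 1: Cox5b, Cox6a1, Cox6c, Cox8b, Cycs (A_51_P163587), Uqcr11, Uqcrc1 (A_51_P109828), Uqcrfs1 and the second Uqcrh probe. For such a probe the Cy5 signal is a lower bound. After loess and Aquantile normalization that bound lay below the Cy3 mean for all 9, by -0.015 to -0.43 on the log2 scale, so no fold can be stated. For all but Uqcrfs1 and Cox6a1 that Cy3 mean itself includes saturated arrays. When normexp-corrected arrays were median-centred, the mean ratio of each of the 9 was positive. Uqcr11 had deposited ratios of -0.67, -0.080 and -0.47, Cox6c -0.35, 0.073 and -0.082 and the second Uqcrh probe -0.40, -0.079 and -0.42.

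Cox7b, a small ubiquitous subunit of complex IV, was saturated in both channels on replicate 3. On the other arrays it was below saturation, with log2 ratios of 0.15 and 0.91 on replicates 1 and 2. The deposited -0.31 on replicate 3 is not a measured ratio.

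**Figure D4:**
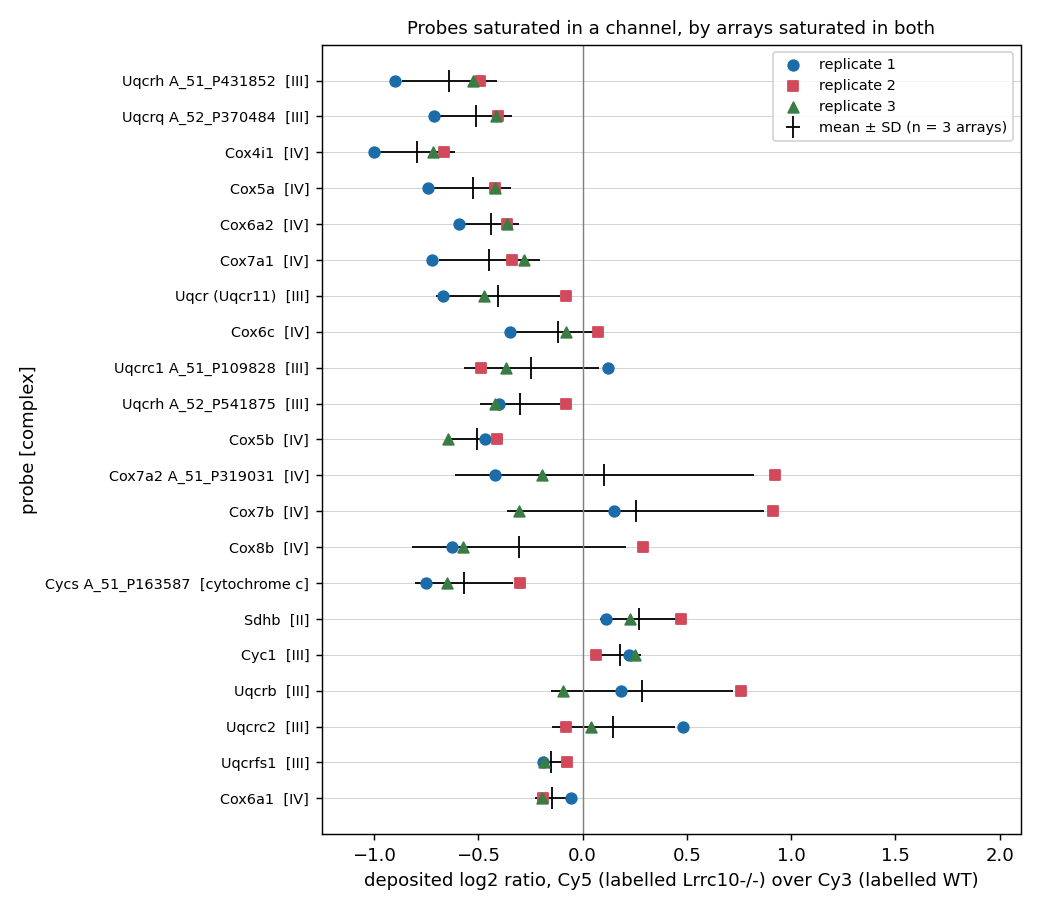
Deposited log2 ratios, Cy5 over Cy3, of the 21 probes saturated in a channel of at least 1 array, ordered by the number of arrays with both channels saturated (all 3 arrays in the 6 rows at the top); symbols are the arrays and the tick and bar the mean ± SD. The 6 top rows lie to the left of 0 on each array.

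Heart and ubiquitous isoforms of complex IV were compared on each array by the difference of their deposited log2 ratios, heart isoform minus ubiquitous isoform. Cox6a2 minus Cox6a1 was -0.54, -0.17 and -0.17 on replicates 1, 2 and 3. Cox7a1 minus Cox7a2 was -0.30, -1.26 and -0.086, and Cox8b minus Cox8a was -0.56, 0.28 and -0.56. The means were -0.29 ± 0.21, -0.55 ± 0.62 and -0.28 ± 0.49 (SD, n = 3 arrays). None of the 3 heart isoforms had an unsaturated probe: Cox6a2 and Cox7a1 were at the ceiling in both channels on all arrays, and Cox8b on 1. A relative change between heart and ubiquitous isoforms was therefore not measurable on these arrays. With 3 arrays an exact sign-flip test cannot give a two-sided p below 0.25.

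Other genes of the pathway were taken from lists of assembly factors, mitochondrially encoded subunits and nuclear regulators. Of 56 genes, 52 had a tested probe (85 probes, 81 of them unsaturated). limma called 0 of the 85 after adjustment, 1 had an unadjusted p under 0.05, in Cy5, and the selection took 0. In all, 13 had a positive ratio on each array and 8 a negative one, beside 10.0% and 11.0% of all tested probes. The 8 include the saturated probes of Ndufa4 and of the mitochondrially encoded subunits, the latter without a measured direction. The median of the means over the 85 was 0.025. The probe with an unadjusted p under 0.05 was that of Hccs, the lyase that attaches heme to cytochrome c, with log2 ratios of 0.56, 0.14 and 0.64 and an adjusted p of 1.00.

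Among the assembly factors, the 33 probes for complex IV had a median of means of -0.11. On all arrays, 2 of them were brighter in Cy5 (10.0% of all tested probes) and 4 in Cy3 (11.0%). Their 32 unsaturated probes had medians of -0.37, 0.093 and -0.087 on replicates 1, 2 and 3, highest on replicate 2 as in the unsaturated complex IV subunits, with 7, 19 and 12 of 32 above 0. The 6 for complex II had a median of 0.060 and the 10 for complex III 0.078. Nuclear regulators of mitochondrial genes had 31 probes and a median of 0.092. On all arrays, 6 of the 31 were brighter in Cy5 (10.0% of all tested probes) and 1 in Cy3 (11.0%). The mitochondrially encoded subunits were read by 2 probes, which the array names CYTB (mt-Cytb) and COX2 (mt-Co2). Both were saturated, with deposited ratios of -0.57, -0.35 and -0.35 and -0.57, -0.25 and -0.22. The probe of Ndufa4, a complex IV subunit once assigned to complex I, was also saturated, but not in both channels on all arrays. Its deposited ratios were -0.77, -0.17 and -0.34.

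Markers of the tissue and of other cell types were read beside these values. The 8 ventricular cardiomyocyte markers were all well above background in both channels. Of their 14 probes 9 were saturated, and the 5 unsaturated ones had median log2 ratios of 0.11, -0.76 and 0.29 on replicates 1, 2 and 3, with 2 of 5 above 0 on replicate 2. Endothelial markers had medians of 0.19, -0.82 and -0.038, with 0 of 4 probes above 0 on replicate 2, and fibroblast markers 0.37, -0.65 and -0.037, with 2 of 7 above 0 there. The 6 unsaturated probes of skeletal muscle markers had medians of 0.058, 0.20 and 0.087. Of the 6 genes on that list, 4 were well above background in both channels.

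Atrial markers differed between the pools of replicate 2, but not all in 1 direction. The 4 tested probes of Myl4, Myl7 and Sln were brighter in Cy5 in 4 of 4 on that array, and their summed signal was 869.2, 7074 and 733.5 in Cy5 and 1016, 1402 and 780.3 in Cy3 on replicates 1, 2 and 3. Both Nppa probes were brighter in Cy3 there, and with them the log2 ratio of the summed signals was -0.97, -0.55 and -0.76. Red blood cell markers had 4 of 6 probes saturated, and the 2 others were brighter in Cy5 on replicates 1 and 2 and in Cy3 on replicate 3. Their medians were 0.32, 1.03 and -0.43.

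Fat markers had ratios of both signs, and 2 of the 6 genes listed were well above background in both channels on all arrays. Cfd (adipsin) had log2 ratios of 2.26, -0.28 and -1.91 and Adipoq (adiponectin) 1.52, -0.72 and -1.52. The list of 5 probes had medians of 0.46, -0.28 and -0.95, and without Cidea, the brightest, its summed signal was 380.3, 266.1 and 135.4 in Cy5 and 115.9, 350.7 and 414.7 in Cy3. Ucp1, which defines brown fat, was not well above background on any array in Cy5. Replicate 2 was the array on which the unsaturated complex IV, unsaturated red blood cell, Myl4, Myl7 and Sln probes were brightest in Cy5. The endothelial, fibroblast and unsaturated ventricular medians were lowest on that array. The part of these cell types in the complex IV ratios was not tested.

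The level of the whole set depended on the normalization. The median of means over the 38 probes was -0.049 with the deposited ratios and -0.12 with normexp correction and loess. It was 0.34 when normexp-corrected signals were only centred on the median of each array, a treatment under which all tested probes had a median of 0.15. The unsaturated probes alone had medians of 0.027, 0.034 and 0.50 in the same order. No treatment brought a probe of the set below an adjusted p of 0.05 by limma.

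**Figure D5:**
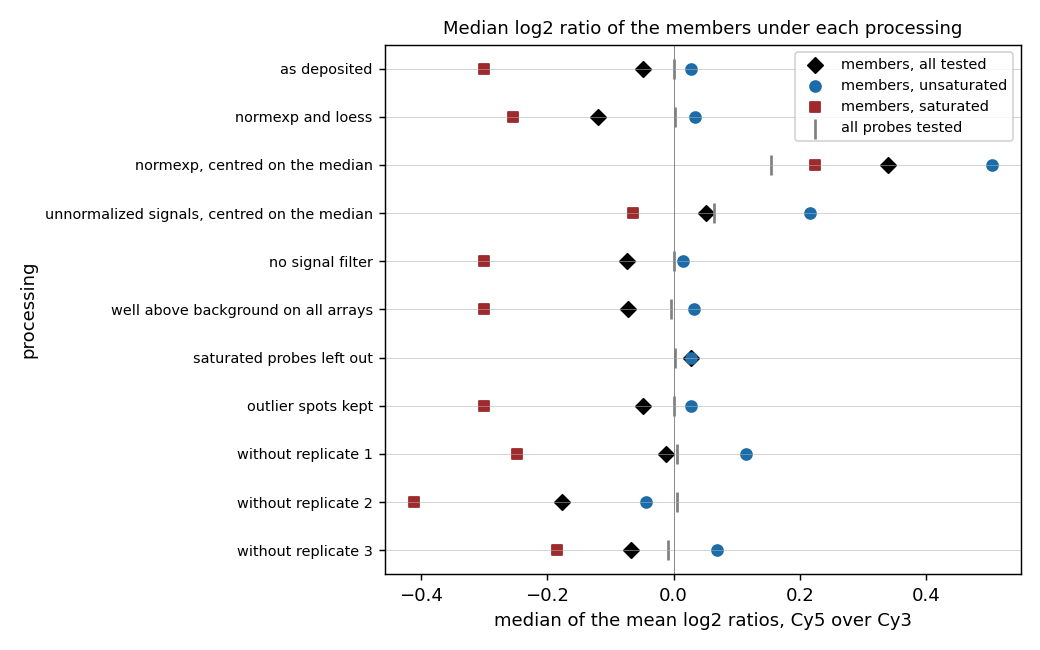
Median of the mean log2 ratios, Cy5 over Cy3, over all 38 tested probes (diamonds), the 17 unsaturated (circles) and the 21 saturated probes (squares) under each processing, with the median of all probes tested as a grey tick. The saturated probes lie to the left of the unsaturated ones in each row that holds both, and centring on the median after normexp moves all 3 to the right of 0.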

How the data were processed

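Pooled heart RNA was measured on 3 arrays of 1 slide. Each array was read with Agilent's Feature Extraction software, version 9.1.3.1, per the file headers. The deposited mean signal intensities are unnormalized, and the deposited processed signal intensities had local background subtracted and the dyes scaled by a linear factor and a lowess step. The deposited log10 ratio is Cy5 over Cy3 of the processed signals, and the deposited p-value belongs to that ratio on 1 array. The genome build is not given in the sources used here, so no coordinates are stated. A second deposited table of log10 ratios was used only to check these.

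From these, log10 ratios were converted to log2, 11, 21 and 4 outlier spots were left out on replicates 1, 2 and 3, spots of a probe were averaged, and probes with a mean processed signal of at least 20 were tested (29576 probes). The intercept was estimated in R 4.3.3 using limma 3.58.1 (eBayes with trend, two-sided, Benjamini-Hochberg adjustment over all tested probes), and the script was tested on simulated data with 200 changed probes. A selection modelled on the study's criteria took a ratio of 1.2 and an array p under 0.05 on each array, since the methods do not say which p they used. On 3 arrays well above background spots numbered 30512 to 30810 in Cy5 and 28942 to 30269 in Cy3, and the number of arrays limits the precision. Every gene that the name rule takes was named, and genes of the other pathway lists where a probe met the selection or an unadjusted p under 0.05. Outside this rule, the mitochondrially encoded genes, Ndufa4, Nppa and single marker genes were named after their values were seen. Matching of other pathway genes used current symbols or synonyms of the reference table (GRCm38.p6), and the array's own names for the mitochondrially encoded genes. The genes, lists and alternatives were chosen with earlier results of these data known. Alternatives were normexp correction with an offset of 50 followed by loess or by centring on the median, unnormalized signals, other probe filters, leaving out each array, eBayes without trend and the methods' t-test.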

Additional observations from a re-analysis of the deposited data

How the results depend on the processing

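The count of probes of the set called by limma was 0 under all alternatives run, including eBayes without trend and the methods' t-test. With normexp correction and loess, 7 probes (4 unsaturated) had positive ratios on each array and 10 (0 unsaturated) negative ones, counts given without the share of all tested probes. There 10 means changed sign, those of Cyc1 (-0.052) and Cox8a (0.048) by more than 1 SD. With normexp and centring on the median, 18 probes had positive and 1 negative ratios on each array (unsaturated 9 and 1), the selection took 0 in Cy3, and the medians were 0.34 over all probes of the set, 0.50 over the unsaturated and 0.22 over the saturated. Of 17 probes that changed sign there, 11 moved by more than 1 SD: Uqcr11 (0.12), Uqcrc1 (A_51_P109828 0.36 and A_51_P109835 0.50), Uqcrfs1 (0.46), Uqcrh A_52_P541875 (0.18), Cycs A_51_P163587 (0.16), Cox5b (0.22), Cox6a1 (0.33), Cox7a2l (0.68), Cox8a (0.51) and Cox8b (0.33). With unnormalized signals centred on the median, 11 probes (7 unsaturated) had positive and 7 negative ratios on each array, the selection took 0 in Cy3, the saturated median was -0.064, and 11 means changed sign, those of Uqcrfs1 (0.17), Cox6a1 (0.043), Cox7a2l (0.40) and Cox8a (0.23) by more than 1 SD. The cause of these shifts was not tested, and saturation leaves no measured ratio for the 6 probes at the ceiling in both channels on all arrays. Leaving saturated probes out left 1 probe brighter in Cy5 and 0 in Cy3 on all arrays, and 0 selected in Cy3. With fold change alone the selection took 1 in Cy5 and 8 in Cy3, counts given without the share of all tested probes. With the p of limma it took 1 in Cy5 (0.923% of all tested probes) and 6 in Cy3 (1.12%). The Lrrc10 ratio of 5.37, with an adjusted p of 0.00025 by limma, had 0.975 with no signal filter and 1.00 by the methods' t-test, and passed 0.05 under the other alternatives that keep all arrays. Over all probes limma called 2 in Cy5 and 0 in Cy3, and 10 and 0 with unnormalized signals.

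Leaving out 1 array at a time, the selection took 0 to 1 probes in Cy5 and 5 to 8 in Cy3, the highest without replicate 2. This and the other counts for the set in this paragraph are given without the share of all tested probes. They were not set against the whole array. Probes with 1 direction on the remaining arrays numbered 6 to 7 in Cy5 and 12 to 23 in Cy3, and among the unsaturated 2 to 5 in Cy5 and 0 to 8 in Cy3, again highest in Cy3 without replicate 2. The medians ranged from -0.18 to -0.012 over all probes of the set, from -0.044 to 0.11 over the unsaturated and from -0.41 to -0.18 over the saturated, the lowest in each without replicate 2. Over all probes limma called 409 in Cy5 and 134 in Cy3 without replicate 3, against 1 and 0 without replicate 1 and 0 and 0 without replicate 2, and the cause was not tested. The Lrrc10 ratio ranged from 5.23 to 5.60, with an adjusted p of 0.0793 without replicate 2. Unadjusted p-values under 0.05 numbered 0 to 1 in Cy5 and 0 to 13 in Cy3, the most without replicate 2. Each ratio already pairs the channels of 1 array, and both the limma intercept and the t-test are tests of these paired differences.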
